A study of Mus musculus with 9 samples.

Results

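Monocytic myeloid-derived suppressor cells (M-MDSCs) from tumours of WT mice were described here from their own RNA alone, by the level of each gene in the 3 libraries labelled with the genotype WT. These are 3 of the 9 libraries of a bulk RNA-seq series that also holds 3 libraries from LILRB4+/+ mice and 3 from LILRB4+/+ SCG2-/- mice, which were not compared here. All mice bore tumours grown from MC38 cells (a colon carcinoma line of the mouse), and the RNA came from M-MDSCs sorted from tumour. Libraries were made from poly-A RNA with a kit that keeps the strand. The labels do not give the gate of the sort, the age or sex of the mice, or whether a library held cells of 1 mouse or of several, so the spread between the 3 libraries may be partly technical. The 3 libraries held 19597229, 24219315 and 19235520 recovered counts, and 54532 genes were listed, of which 22046 were protein-coding.

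M-MDSCs are immature cells of the monocyte lineage that build up in tumours and chronic inflammation and dampen T cell responses. They resemble inflammatory monocytes by their surface proteins (CD11b, encoded by Itgam, and Ly6C, encoded by Ly6c2 and Ly6c1) and are told apart from the granulocytic kind by low or absent Ly6G. Their known tools are the depletion of arginine by arginase, nitric oxide from inducible nitric oxide synthase, reactive oxygen from the phagocyte NADPH oxidase, prostaglandin E2, and cytokines such as IL-10 and TGF-beta. In tumours they can mature into macrophages, so the genes of both states are often seen together.

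Levels are given as FPKM, fragments scaled for gene length and for the size of the library, which can be compared between genes because they are divided by length. Where 3 values are listed they stand for WT replicates 1, 2 and 3 in that order, and a mean is followed by its SD (n = 3). A gene was counted as detected when its FPKM was at least 1 in all 3 libraries. By this rule 11164 genes were detected, among them 10178 protein-coding genes, or 46.2% of all protein-coding genes, which is the background for every list count below. A listed 0 allows up to 0.124 to 0.156 CPM (counts scaled to library size), the value that 3 counts make in these libraries; this floor covers counting error only. The FPKM of all genes summed to 313211, 372587 and 306518, so replicate 2 carries the highest FPKM in total, and an order of libraries given below is on the FPKM scale. With each library brought to the same sum (TPM), another library was highest for 116 of 577 genes checked, the members of the lists, the 20 highest genes, granzymes and heat shock genes with a mean of at least 0.5. In RNA from bulk cells, fewer cells of a type and less RNA per cell cannot be told apart.

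The highest FPKM of all belonged to a very short feature, Gm23935, labelled miRNA, and its sequence is shown because its length bears on the level. It is 57 bases long, lies at chr16:11144125-11144181 on the plus strand (GRCm38), opposite to the minus-strand gene Zc3h7a, and has a GC content of 73.7%. The same 57 bases are held in full by 2 other annotated features, Gm24245 and Gm24270, so the split of counts among these features is uncertain.
Gm23935: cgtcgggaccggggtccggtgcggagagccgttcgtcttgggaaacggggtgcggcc

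Stretches of promoter are shown for 5 genes at the centre of the account that follows, a monocyte marker and 4 secreted factors. These stretches hold letters that match patterns counted further on, for Il1b and Tnf the TATA box only. Each is the 150 bases before the gene's start, written 5′ to 3′ on the gene's own strand, from RefSeq on build GRCm38.p6. The windows are Ly6c2 at chr15:75111972-75112121 (minus strand), Il1b at chr2:129371140-129371289 (minus strand), Tnf at chr17:35202008-35202157 (minus strand), Cxcl1 at chr5:90891095-90891244 (plus strand) and Cxcl2 at chr5:90903749-90903898 (plus strand). Capitals mark a match to 1 of 5 letter patterns searched in the 250 bases before and 50 after the start: the kappaB motif (the letters in capitals in Cxcl1 and Cxcl2, with any base in position 5), the PU.1 motif GAGGAAGT, the C/EBP motif TTGCNNAA and the AP-1 motif TGANTCA on both strands, and the TATA box TATAAA on the transcribed strand. No pattern contains another. Cxcl1 and Cxcl2 each hold 1 kappaB match, 71 and 97 bases before the start. Il1b and Tnf each hold a TATA box, 31 and 29 bases before it. Ly6c2 holds a PU.1 match 108 bases before the start and another 26 bases after it, outside the stretch shown. The table gives Ly6c2 another start as well, from which the same matches lie 142 and 8 bases before it; the stretch printed belongs to the first.
Ly6c2: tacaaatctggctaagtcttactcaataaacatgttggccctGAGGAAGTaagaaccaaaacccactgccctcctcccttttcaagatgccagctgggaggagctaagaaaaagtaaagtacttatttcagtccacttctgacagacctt
Il1b: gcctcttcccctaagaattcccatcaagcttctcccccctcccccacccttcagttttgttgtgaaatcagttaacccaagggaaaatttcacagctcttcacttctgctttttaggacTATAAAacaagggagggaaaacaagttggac
Tnf: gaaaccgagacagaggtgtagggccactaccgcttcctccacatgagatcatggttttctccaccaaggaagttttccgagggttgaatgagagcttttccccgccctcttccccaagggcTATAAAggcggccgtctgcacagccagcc
Cxcl1: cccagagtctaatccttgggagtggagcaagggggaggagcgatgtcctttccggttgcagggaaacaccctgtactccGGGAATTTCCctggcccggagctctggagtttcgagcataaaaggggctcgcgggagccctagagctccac
Cxcl2: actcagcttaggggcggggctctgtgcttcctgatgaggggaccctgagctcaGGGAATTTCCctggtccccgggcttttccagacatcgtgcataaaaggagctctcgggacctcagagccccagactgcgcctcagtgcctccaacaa

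One library stood apart, and its values bear on several lists. WT replicate 1 had the highest summed levels of lymphocyte genes and of heat shock genes, and the lowest level of most monocyte markers. Hspa1b, an inducible HSP70 chaperone, was at 1386, 300.2 and 364, and its near copy Hspa1a at 727, 149 and 162. Hspb1, a small heat shock protein, was at 55.3, 6.85 and 5.80 and Hsp90aa1, the inducible cytosolic HSP90, at 636, 243 and 274. Of the 64-base windows in their transcripts, Hspa1a shared 63.7% and Hspa1b 58.5% with other genes, mostly with each other, and Hsp90aa1 44.7%. The split of counts among such copies is uncertain. Replicates 2 and 3 lay close together for all 4 genes, and replicate 1 lay above both. The chaperone of the endoplasmic reticulum Hspa5 had no such gap, at 702, 746 and 698. The summed immediate-early and heat shock list (15 of 15 detected) made 2.17%, 1.24% and 1.31% of all FPKM, with a mean of 1.58% over the 3 libraries and 1.28% without replicate 1.

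The lymphocyte lists showed the same order. The 18 T and NK cell markers made 0.114%, 0.0292% and 0.0438% of FPKM, with 14 of 18 detected, and the mean was 0.0623% with replicate 1 and 0.0365% without it. Among them Gzmb, a granule protease of cytotoxic cells, was at 76.7, 22.3 and 24.1, Trac, the constant part of the T cell receptor alpha chain, at 47, 18.4 and 15.9, and Cd8a at 20.5, 3.41 and 5.58. The 8 B and plasma cell markers, of which 3 were detected, made 0.263%, 0.0274% and 0.0490%, or 0.113% on average and 0.0382% without replicate 1. That sum was mostly Igkc, the kappa light chain constant gene, at 530.2, 62.4 and 91.9, and Ighm, the mu heavy chain gene, at 269, 36.1 and 53.2, while the B cell surface gene Ms4a1 at 0.0603, 0.0202 and 0.0157 was near 0. Of 218 immunoglobulin V genes, 62, 18 and 31 reached an FPKM of 1. Of the other granzymes of cytotoxic T and NK cells, Gzmc at 287, 75.8 and 94.7 and Gzmf at 210.5, 31.7 and 50.5 stood above Gzmb in each library and Gzmg at 68.9, 12.1 and 17.9 below it, and Pdcd1, which encodes PD-1, was at 43.3, 7.0 and 13.7. The part of these cells in the other results was not tested; the values of each library are given so that replicate 1 can be read apart.

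**Figure D1:**
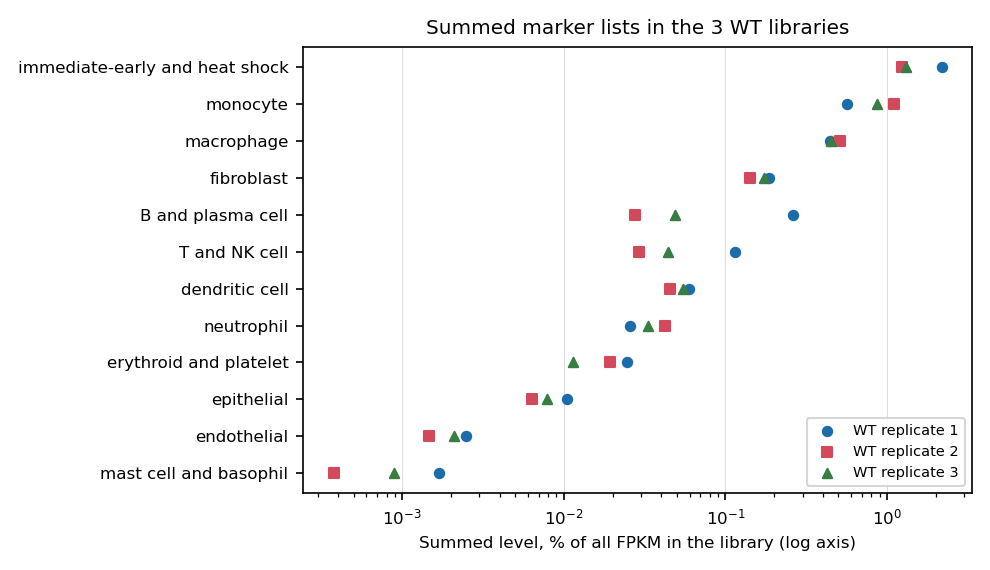
Summed level of each cell marker list and of the immediate-early and heat shock list, as % of all FPKM (log axis), 1 point per WT library. The monocyte list runs from 0.567% to 1.10% with replicate 1 lowest, while replicate 1 is highest for the heat shock, B and plasma cell, and T and NK cell lists.

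The markers that define the cells were present in every library. Itgam (ENSMUSG00000030786, chr7:128062640-128118491 on GRCm38), the alpha M integrin chain CD11b, was at 29.5, 54.1 and 30.8 FPKM, a mean of 38.1 ± 13.8. Ly6c2 (ENSMUSG00000022584, chr15:75108158-75111970 on GRCm38) was at 36.7, 105 and 62, a mean of 67.9 ± 34.6, and its neighbour Ly6c1 at 73.8, 119 and 95.4. Ccr2 (ENSMUSG00000049103, chr9:124101950-124113557 on GRCm38), the receptor that draws monocytes out of the marrow, was at 24.9, 32.9 and 24.1. Csf1r (ENSMUSG00000024621, chr18:61105572-61132149 on GRCm38), the M-CSF receptor, was at 91.8, 138 and 115. On the FPKM scale replicate 2 was the highest of the 3 for all 4 genes; in TPM it was so for the other 3 but not for Csf1r, which was at 293, 370 and 375 TPM. Csf1r lay above the other 3 in each library. Ly6c2 lay above Itgam, and Itgam above Ccr2, in each library, though the ranges over libraries of each of these pairs overlapped.

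All 16 monocyte markers were detected and 14 had a mean of at least 10, against 20.2% of all protein-coding genes. Cd14, the lipopolysaccharide co-receptor, led them at 886, 2528 and 1541, a mean of 1651 ± 826, and made 57.9% of the list's sum. It was the eighth gene of the whole transcriptome. Fn1, fibronectin, was at 257, 220.1 and 278, Plac8 at 113, 333 and 166, Chil3, a chitinase-like secreted protein, at 117, 235 and 142, and S100a4 at 78.6, 186 and 99.8. Lowest was Cx3cr1, the fractalkine receptor of patrolling monocytes, at 3.83, 3.52 and 3.40; its FPKM varied little between libraries, whereas Ly6c2 and Cd14 each spanned over 2-fold. The whole list made 0.567%, 1.10% and 0.870% of FPKM, or 0.987% on average without replicate 1.

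Some marker values rest on sequence shared with other genes. Of the 64-base windows in its transcripts, Itgam shared 65.7% with Gm49368, an overlapping gene model. Ly6c1 shared 24.9% of its windows and Ly6c2 11.3%, in the latter case with Ly6c1, Csf1r shared 14.1% with its neighbour Hmgxb3, and Ccr2 shared 1.39%. Cd14 shared none. How the counting treated such reads is not given in the sources used here, so the level of Itgam and the split between Ly6c1 and Ly6c2 are uncertain.

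Macrophage markers were present beside the monocyte markers, with 14 of 18 detected and a sum of 0.469% ± 0.0379 of FPKM that differed little between libraries. Spp1, osteopontin, was at 534, 575 and 379.6, Apoe, apolipoprotein E, at 209, 319 and 227, and the complement chains C1qb at 144, 255 and 175 and C1qa at 117, 215 and 152. Adgre1, which encodes F4/80, was at 21.8, 32.5 and 26.3, the mannose receptor Mrc1 at 24.7, 21.1 and 23.2 and Trem2 at 10.2, 14.3 and 9.73. The scavenger receptor Cd163 at 0.598, 0.183 and 0.125 and the folate receptor Folr2 at 0.302, 0.296 and 0.126, markers of resident macrophages, stayed under 1, and Vsig4 and Marco were listed at 0 in all 3. Folr2 shared 49.5% of its windows with Gm10602, so its low value is uncertain. Lyz2, lysozyme M, was at 11.8, 79.1 and 109, and of the detected macrophage markers it had the widest spread, with replicate 1 lowest. It shared 8.54% of its windows with Lyz1, which was at 26, 69.7 and 41.7.

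Neutrophil markers were low in sum, though not all members were. Of 16, 7 were detected and 9 were not, a share close to the 46.2% of all protein-coding genes. The list summed to 0.0337% ± 0.00835 of FPKM. Ly6g, the antigen of granulocytic cells, was at 0.198, 0 and 0, the neutrophil chemokine receptor Cxcr2 at 0.107, 0.0955 and 0.0159, and the primary granule genes Elane at 0, 0.169 and 0 and Mpo at 0, 0.0364 and 0.0142. S100a9 was at 0.804, 10.6 and 1.86 and S100a8 at 0.537, 4.31 and 2.31, with replicate 2 highest for both. The highest of the list were Il1r2, the decoy IL-1 receptor, at 33.7, 60.5 and 49.9, Retnlg at 20.4, 34.1 and 15.2, and the G-CSF receptor Csf3r at 10.9, 15 and 11.7. Cd177 was at 7.5, 40.5 and 26.4 TPM, a scale on which Csf3r was at 34.8, 40.3 and 38.2. Il1r2 and Csf3r are known in monocytes too. For Il1r2 in replicate 2 the deposited count table gives a count that corresponds to 39.2.

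**Figure D2:**
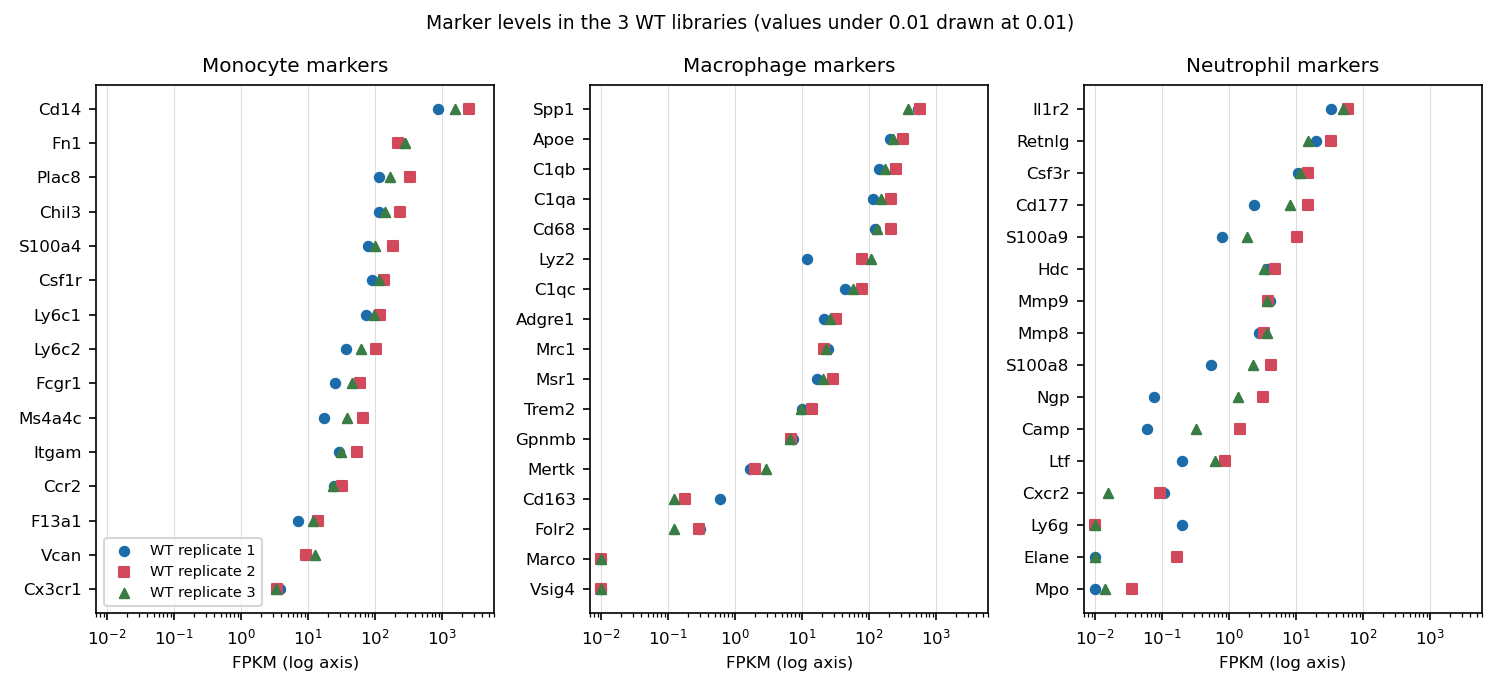
FPKM (log axis) of 15 monocyte, 17 macrophage and 16 neutrophil markers, 1 point per WT library, ordered by mean within a panel. The 15 monocyte markers lie above 1, while Ly6g, Elane and Mpo lie at or near the lower edge, where values under 0.01 are drawn.

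Other lineages were present to different degrees. Dendritic cell markers had 6 of 10 detected: Fscn1, fascin, at 64.2, 80.9 and 77.1, Ccr7, the lymph node homing receptor, at 68.6, 39.6 and 44, and Itgax, which encodes CD11c, at 36.5, 35.5 and 36.9. Also detected were Cd209a at 15.7, 17.3 and 10.4 TPM, Zbtb46 at 8.24, 3.62 and 5.07 TPM and Batf3 at 4.57, 6.36 and 5.06 TPM. Flt3 at 1.34, 0.599 and 0.873, Xcr1 at 0.628, 0.896 and 0.426 and Clec9a at 0.283, 0.379 and 0.428 FPKM were low and not detected. In TPM, where values run higher than in FPKM, Flt3 was at 4.29, 1.61 and 2.85 and Xcr1 at 2.01, 2.41 and 1.39. The gap to Zbtb46 and Batf3 is therefore to be read on that scale. Fibroblast genes had 9 of 10 detected, with a sum of 0.167% ± 0.0232: Sparc at 283, 312 and 277, Col3a1 at 157, 102 and 118 and Col1a1 at 67.6, 47.4 and 65, while Lum at 0.762, 0.866 and 0.714 was under 1. Only 2 of 9 epithelial markers were detected, Cdh1, E-cadherin, at 24.9, 20.9 and 21.3 and Lgals4 at 5.12, 1.67 and 1.49; the keratins Krt8, Krt18 and Krt19 were under 0.5 in all 3 libraries, and Epcam was at 1.67, 0.265 and 0.572. Endothelial markers had 2 of 7 detected, Pecam1 at 4.49, 3.41 and 3.86 and Cdh5 at 2.0, 1.32 and 1.73, and mast cell and basophil markers 0 of 6. Among 9 erythroid and platelet genes 4 were detected, led by Pf4 at 23.8, 39.9 and 22.3, and haemoglobin Hbb-bs was at 22, 13.4 and 4.30. Of 5 sex-linked genes, Xist was at 7.86, 3.72 and 6.46 and the 4 Y-linked genes Ddx3y, Eif2s3y, Kdm5d and Uty were at 0. The part of cells of these types in other results was not tested.

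The messages were spread over many genes, with a steep head. The genes that together made 50% of FPKM numbered 397, 318 and 435, a mean of 383 ± 59.7. The 10 highest held 10.5% ± 0.643 of FPKM and the 100 highest 30.9% ± 1.78. After Gm23935, at 9392, 8560.5 and 7320.2, came Fth1, the ferritin heavy chain that stores iron, at 5294, 7734 and 4805, the elongation factor Eef1a1 at 3697, 4365 and 3669.8, mt-Co1, a mitochondrially encoded subunit of cytochrome oxidase, at 3742, 3387 and 2423, B2m, the light chain of MHC class I, at 2282, 3758 and 2602, and Cd74, the invariant chain of MHC class II, at 2053, 3406 and 2545. The 104 ribosomal protein genes, 95 of them detected, made 11.5% ± 0.658 of FPKM and 30 of the 100 highest genes. Also among the 20 highest were Cd14, Il1b at 800.4, 1839.6 and 1138, the galectin Lgals1 at 1152, 1868 and 1295, and the class I heavy chain H2-D1 at 1047, 1348 and 1080.1. Replicate 2 had the highest value for each of these 4 genes and for Cd74 and B2m. Rplp1, Rplp0, Rps3a1, Rps15, Rpl8 and Rps2, all ribosomal, with Tmsb4x, Hsp90ab1, Eef2 and Tpt1, filled the rest.

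Gene length set part of this order. By summed counts instead of FPKM, Eef1a1 came first with 1.02% of counts, and the number of genes that held 50% rose to 845 ± 90.0. Thbs1, thrombospondin 1, with a gene length of 6073 bases, was eighth by counts and only number 66 by FPKM, at 383, 749 and 744. Gm23935 made 2.30% to 3.0% of FPKM but 0.0446% to 0.0586% of counts. Genes shorter than 200 bases made 3.49% ± 0.595 of FPKM and 0.0866% ± 0.0135 of counts. At a given FPKM, a feature this short rests on fewer counts than a longer gene does.

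By gene class, protein-coding genes held 90.2% ± 0.989 of FPKM and 97.9% ± 0.209 of counts. Processed pseudogenes held 4.39% ± 0.329 of FPKM and 0.826% of counts, led by Gm14303 at 671, 786 and 516, Gm9794 at 627, 749.6 and 560.3 and Rpl17-ps10 at 433, 647 and 428; copies such as the last share sequence with a ribosomal protein gene, so their counts are uncertain. The miRNA class held 2.78% ± 0.454 of FPKM, but Gm23935 made 92.1% of it, and its copy Gm24270 was at 154, 201 and 160.2. After those came Mir5125 at 206, 120.0 and 106; precursors this short are not what a poly-A library is made to measure. Of 5559 lincRNA genes 114 were detected, or 2.05%, and of 2826 antisense genes 68, or 2.41%. The lincRNAs were led by Gm26917 at 93.9, 38.5 and 44.3, Gm10076 at 42.1, 74.7 and 59 and AW112010 at 66.8, 55.2 and 40.4, and Malat1 was at 48.8, 23.9 and 46.5. Some class labels differ from the known product of a gene: Ifi30, a thiol reductase of antigen processing, was labelled processed_transcript and was at 288, 462 and 309, and Clec7a, the beta-glucan receptor Dectin-1, was labelled polymorphic_pseudogene and was at 193, 400.1 and 305. The class that varied most among the 10 largest was IG_C_gene, at 0.313%, 0.0308% and 0.0557% of FPKM, a mean of 0.133% that came to 0.0432% without replicate 1.

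**Figure D3:**
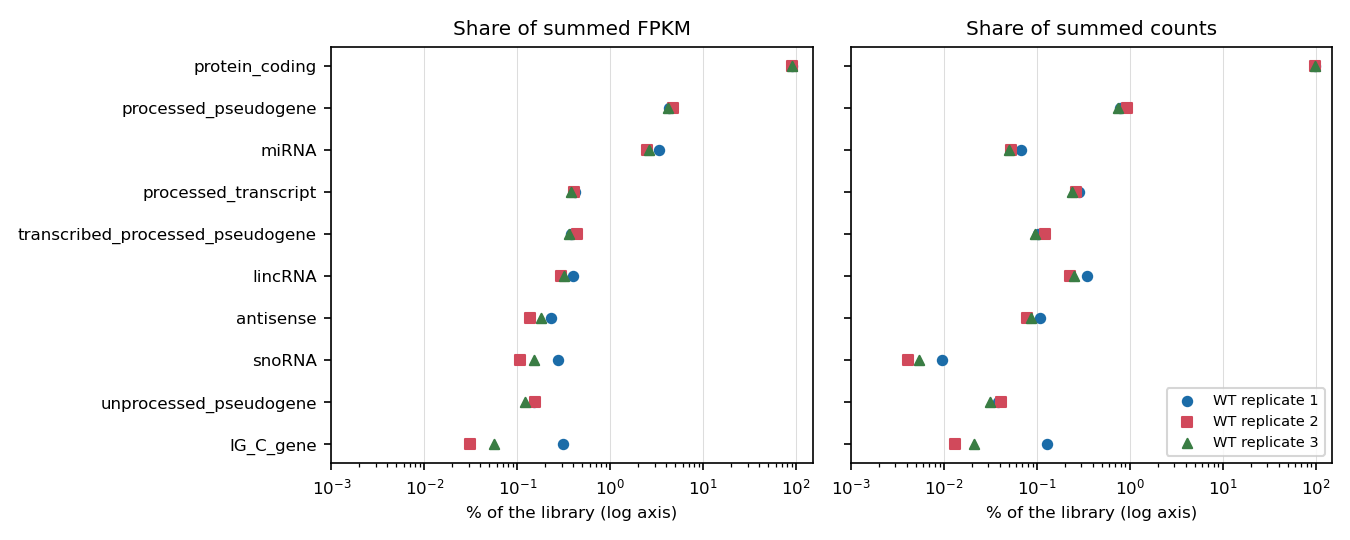
Share of each of the 10 largest gene classes in the summed FPKM (left) and in the summed counts (right), in % on a log axis, 1 point per WT library. The miRNA class falls from 2.78% of FPKM to 0.0565% of counts on average, and IG_C_gene is highest in replicate 1 in both panels.

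Transcription factors made 3.97%, 3.25% and 3.73% of FPKM. Of the 1469 genes to which the authors' table gives a factor family, 649 were detected (44.2%, close to the 46.2% of all protein-coding genes), 213 had a mean of at least 10 and 20 a mean of at least 100. Of the 67 families, 8 had no detected member. TF_bZIP, the label of basic leucine zippers other than those labelled C/EBP, held 26.9% of all factor FPKM. This label had 48 genes, of which 39 were detected, with sums of 3661, 3196 and 2820. It was followed by the zinc fingers zf-C2H2 with 576 genes, 218 detected and 16.3%, by bHLH with 7.18%, by the cold shock domain family CSD with 4.36% and by C/EBP with 4.09% from 4 genes, all detected. The 10 highest families together held 74.9%.

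The 20 highest factor genes held 7 with the family label TF_bZIP. Junb, an AP-1 subunit, was at 558, 732 and 590.3, a mean of 627 ± 92.7, and was the highest factor of all. Jun was at 656, 289 and 331, Fos at 455, 259 and 226 and Atf3, a stress-induced repressor and activator, at 442, 288 and 246. These last 3 were highest in replicate 1, the library with the high heat shock genes, and Junb was highest in replicate 2. Atf4, the effector of the integrated stress response, was at 258, 318 and 252, Jund at 173, 129.5 and 136 and Nfil3 at 94.2, 142 and 107. Cebpb, the factor of emergency myelopoiesis that M-MDSCs are known to need, was at 351, 611 and 346, above its relatives Cebpa at 45.9, 34.8 and 29.7 and Cebpd at 11.4, 7.46 and 5.55 in every library.

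Others of the 20 were Hmga1, a chromatin protein of the AT-hook type, at 296, 465 and 380.0, the monocyte factor Klf4 at 261, 221 and 260.4, Klf6 at 229, 140.1 and 167, Klf2 at 255, 126 and 117, Bhlhe40 at 191, 181 and 164, the orphan receptor Nr4a1 at 198, 178 and 144, Irf1 at 93.5, 119.8 and 106, the NF-kappaB subunit Nfkb2 at 108, 92.4 and 109 and Egr1 at 96.8, 108 and 102. Ybx1, Ybx3 and Id2 completed them. Spi1, which encodes PU.1, and Irf8, also factors of monocyte fate, were present at lower levels than Klf4. Spi1 was at 44.9, 88.8 and 54.9 and Irf8 at 44.4, 26 and 27.2. Of 50 myeloid factors 47 were detected, 38 had a mean of at least 10, and Pparg at 0.426, 0.577 and 0.526, a factor of alveolar macrophages, was under 1 in all 3. NF-kappaB subunits were all detected, with Rela at 68.4, 73.4 and 67.1, Nfkb1 at 42.3, 38.2 and 37.9, Rel at 28.9, 32.2 and 36.2 and Relb at 24.7, 24.8 and 21.7, and the inhibitor Nfkbia was at 916, 1136 and 873.

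**Figure D4:**
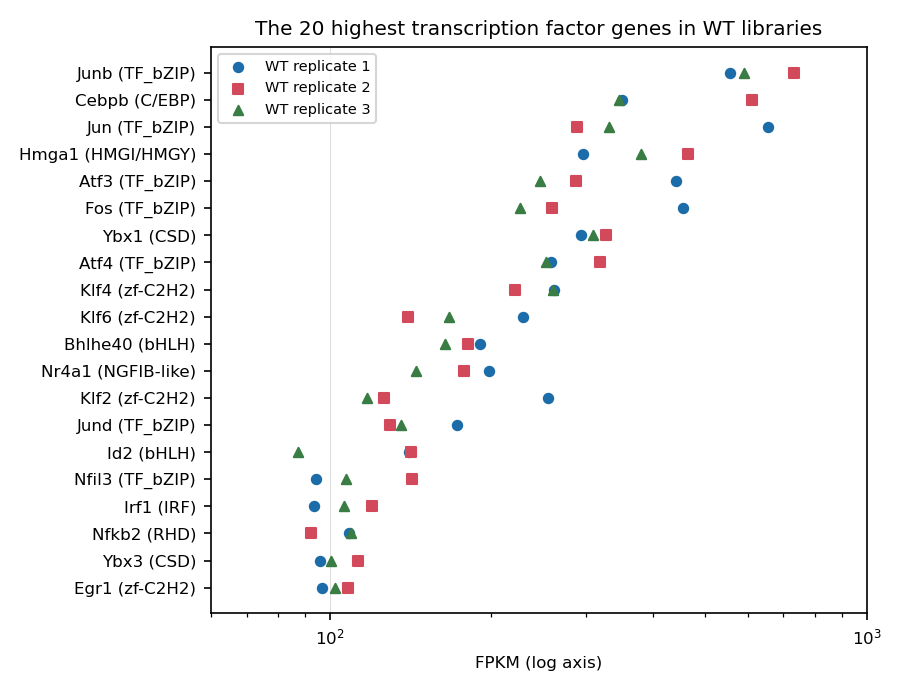
FPKM (log axis) of the 20 transcription factor genes with the highest mean, 1 point per WT library, with the family of each in brackets. Junb is highest on average, and Jun, Fos, Atf3 and Klf2 have replicate 1 to the right of the other 2 libraries.

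Motif letters for these factors, and those of the TATA box, were counted in the promoters of the genes described here. Of the 44 chemokines and cytokines with a mean of at least 10, 32 had an entry in the table of promoters. A kappaB match stood in 5 of them (15.6%), Csf1, Cxcl1, Cxcl2, Cxcl3 and Il6, against 0.466% of all 27025 genes with a promoter. AP-1 letters stood in 8 (25.0% against 8.97%), and the TATA box in 10 (31.3% against 9.77%), Il1b, Tnf and Spp1 among them. Of the 14 monocyte markers with a mean of at least 10, 11 had an entry, and 4, F13a1, Ly6c1, Ly6c2 and S100a4, held the PU.1 letters (36.4% against 3.69%). Of the same 11, 0 held the kappaB letters, 0 the AP-1 letters, 1 the C/EBP letters and 3 the TATA box, and 3 of the 32 secreted factors held the PU.1 letters (9.38%). The C/EBP letters stood in 6 of the 32 secreted factors (18.8%) and in 12.2% of all genes. Of the 30 chemokine and cytokine receptors with a mean of at least 10, 22 had an entry; 1 held the kappaB letters, 1 the PU.1 letters, 3 the C/EBP letters (13.6%), 2 the TATA box (9.09%) and 0 the AP-1 letters. Among the 8226 detected genes with a promoter the shares were 0.559% for kappaB, 4.01% for PU.1, 10.1% for C/EBP, 6.32% for AP-1 and 5.26% for the TATA box. Genes such as Cxcl1 and Cxcl2, or Ly6c1 and Ly6c2, are neighbours of related sequence and do not count as independent. A match is a description of letters, not a site shown to be bound.

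Receptors for the myeloid growth factors GM-CSF and M-CSF were high, whereas the G-CSF receptor Csf3r was lower, at 10.9, 15 and 11.7. Of 43 cytokine and growth factor receptors, 36 were detected and 3 had a mean over 100. Csf2ra, the alpha chain of the GM-CSF receptor, was at 182, 196 and 158, a mean of 178 ± 19.2, above Csf1r in each library, and the shared beta chains Csf2rb at 64.7, 85.8 and 79.7 and Csf2rb2 at 42.4, 47.1 and 45.7 stood below both. The TNF receptors were at 145, 170.3 and 150.2 for Tnfrsf1b and 42.9, 83.1 and 65 for Tnfrsf1a. Ifngr1 was at 81.4, 65.3 and 62.6, Il10ra at 52.8, 58.4 and 53.5 and Il4ra at 55.5, 55.3 and 53.7; the FPKM of the last 2 varied little between libraries. The IL-6 receptor was lower, with Il6ra at 6.98, 7.93 and 11.1 and its signalling chain Il6st at 9.54, 8.0 and 11.6, and the signalling IL-1 receptor Il1r1 was at 2.34, 2.02 and 2.70, far under the decoy Il1r2. Il2rb, the IL-2 receptor chain of T and NK cells, was at 83.2, 19 and 34.4 and followed the lymphocyte genes of replicate 1. Tgfbr1 was at 9.14, 9.73 and 10.7, with a count in the deposited count table that corresponds to 7.12 in replicate 2, and Tgfbr2 was at 14.8, 10.9 and 12.4.

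All 15 JAK-STAT components were detected. Socs3, the feedback inhibitor of gp130 receptors, was at 381, 381 and 325 and made 57.5% of the list. Jak2 was at 46.9, 47.1 and 52.6, Stat6 at 39.4, 39 and 42, Stat3 at 48.2, 32.2 and 37.6 and Jak1 at 37.7, 31.9 and 39.3. Jak2 lay above Stat6, and Stat6 above Jak1, in each library, though the ranges of Stat3, Stat6 and Jak1 over libraries overlapped. The order of Stat3 against Stat6 and Jak1 changed between libraries.

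Of 23 chemokine receptors 11 were detected. Cxcr4, the receptor that holds cells in the marrow, was at 132, 114 and 88, Ccrl2, an atypical receptor that binds chemerin, at 93.4, 129 and 93.4, Ccr1 at 36.3, 76.4 and 53.6 and Ackr3 at 50.05, 45.7 and 41.2. The neutrophil receptors Cxcr1 at 0, 0 and 0.0326 and Cxcr2 were near 0. Cxcr6 at 15.5, 4.11 and 5.64 and Cxcr3 at 2.88, 1.06 and 1.38, receptors of effector T cells, were highest in replicate 1.

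In the list of inhibitory receptors and phosphatases all 17 members were detected. The highest member was Lilr4b at 289, 137 and 149, a relative of Lilrb4a that is not itself an inhibitory receptor. Next came Lilrb4a at 138, 47.7 and 74, the mouse counterpart of the LILRB4 receptor that the series is about. The inhibitory Fc receptor Fcgr2b was at 70.6, 106 and 82.2 and the CD47 receptor Sirpa at 56, 82.6 and 72.2. The phosphatase SHP-1, Ptpn6, was at 37.3, 39.9 and 31.8. Lilr4b and Lilrb4a were highest in replicate 1, unlike Fcgr2b and Sirpa. Lilr4b shared 18.4% of its windows with Lilrb4a, and Lilrb4a shared 43.0% of its own with 3 genes, most of it (32.8%) with the gene model Gm49339, so the split among these genes is uncertain. Of 17 activating receptors and adaptors, 15 were detected and 7 had a mean over 100: the adaptors Tyrobp (DAP12) at 309, 639 and 336 and Fcer1g at 254, 537 and 276, then Clec7a, the Fc receptor Fcgr3 at 151, 273 and 174, Clec4n at 111, 186 and 123, Clec4e (Mincle) at 90.7, 147 and 97.6 and Clec4d at 83.4, 143 and 84.3. Oscar was at 0.0757, 0 and 0.0263 and Lilra5 under 0.5.

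Pattern recognition genes had 20 of 23 detected, and Cd14 made 81.8% of their sum. Tlr2 was at 106, 204 and 148, and Tlr4, the partner of Cd14 in sensing lipopolysaccharide, at 8.12, 9.27 and 9.74, so that Tlr2 lay above Tlr4 in each library. The inflammasome sensor Nlrp3 was at 54.3, 82.5 and 81.2, the adaptor Myd88 at 23.7, 39.6 and 28.1, and Tmem173, which encodes STING, at 25.7, 37.6 and 28.2. Tlr5, Tlr11 and Tlr12 were under 1.

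Secreted signals were among the highest transcripts. Of 48 cytokines and growth factors 35 were detected, and Il1b, the inflammasome-processed interleukin, made 34.4% of their sum. Next came Mif, macrophage migration inhibitory factor, at 397, 682 and 452, then Spp1, the IL-6 family member Osm at 133, 260.3 and 163, Vegfa at 131, 182 and 170.3, and Grn, progranulin, at 126, 185 and 150.4. Il1a was at 154, 164 and 104, Tnf at 132, 139 and 92.9, and Il1rn, the IL-1 receptor antagonist, at 72.3, 99.3 and 68.2. Il6 was at 20.2, 27.2 and 20.2, Csf1 at 39.6, 24.3 and 27.4, Csf2 at 18.8, 14.2 and 13.7 and Lif at 40.1, 19.5 and 16.2. Il12b at 3.32, 1.54 and 2.82 was low but detected, Il12a at 1.43, 1.52 and 0.9997 fell just short in replicate 3, Il23a was at 18.2, 19.1 and 12.2, and Igf1 at 0.155, 0.0756 and 0.0883 was near 0. Ifng at 10.8, 2.22 and 3.15 was highest in replicate 1, as were the T cell genes.

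Of 17 CXC, XC and CX3C chemokines 10 were detected. Cxcl2 was at 779, 1225 and 785 and Cxcl1 at 329, 420.0 and 259, both neutrophil attractants, and Cxcl2 was the highest chemokine in each library. Cxcl10 was at 73.8, 133 and 88.5, Cxcl3 at 88.7, 95.7 and 59.8, Cxcl16 at 61.7, 86.4 and 70.1 and Cxcl9 at 21.3, 59.1 and 43.9. Xcl1, a chemokine of T and NK cells, was at 46.7, 10.3 and 13.3. Cxcl12 at 0.416, 0.320 and 0.362 was under 1, and Cxcl15 and Cxcl17 were at 0.

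Of 21 CC chemokines 14 were detected. The monocyte attractants Ccl2 at 492, 446 and 291 and Ccl7 at 174, 159.8 and 101 and the macrophage inflammatory proteins Ccl3 at 397, 272 and 175 and Ccl4 at 332, 216 and 143 were highest in replicate 1, while Ccl6 at 136, 239 and 133 and Ccl9 at 82.4, 143 and 84.9 were highest in replicate 2. For Ccl9 the deposited count table gives a count that corresponds to 83.6 in replicate 2. Ccl5 was at 121, 78.1 and 53.4, Ccl17 at 39.5, 46.7 and 37.8 and Ccl22 at 21.2, 10.7 and 12.2. Ccl19, Ccl20, Ccl21a and Ccl26 were listed at 0 in all 3 libraries. Ccl21a shared 65.9% of its windows with other gene models and Ccl19 48.2%, so their values are uncertain, while Ccl20 and Ccl26 shared none.

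Of 35 known ligand and receptor pairs examined, both partners were detected in 29. The ligand had the higher mean in 19 of these, and in all of those 19 it was higher in each library. The widest gap was Il1b over Il1r1. Ccl2, at a mean of 409.8 ± 105, exceeded its receptor Ccr2, at 27.3 ± 4.83. The receptor was higher for Csf1r over Csf1, Csf2rb over Csf2, Il10ra over Il10, Cd74 over Mif, and Tnfrsf1b over Tnf. In 6 pairs a partner was not detected: Cxcl2 with Cxcr2, Cxcl12 with Cxcr4, Osm with Osmr, Ifnb1 with Ifnar1, Vegfa with Flt1, and Scg2 with Lilrb4a. Scg2, secretogranin II, which the series pairs with LILRB4, was at 0.0185, 0 and 0, while 2 other reported partners of that receptor, Apoe and Fn1, had means of 252 ± 58.5 and 252 ± 29.1.

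**Figure D5:**
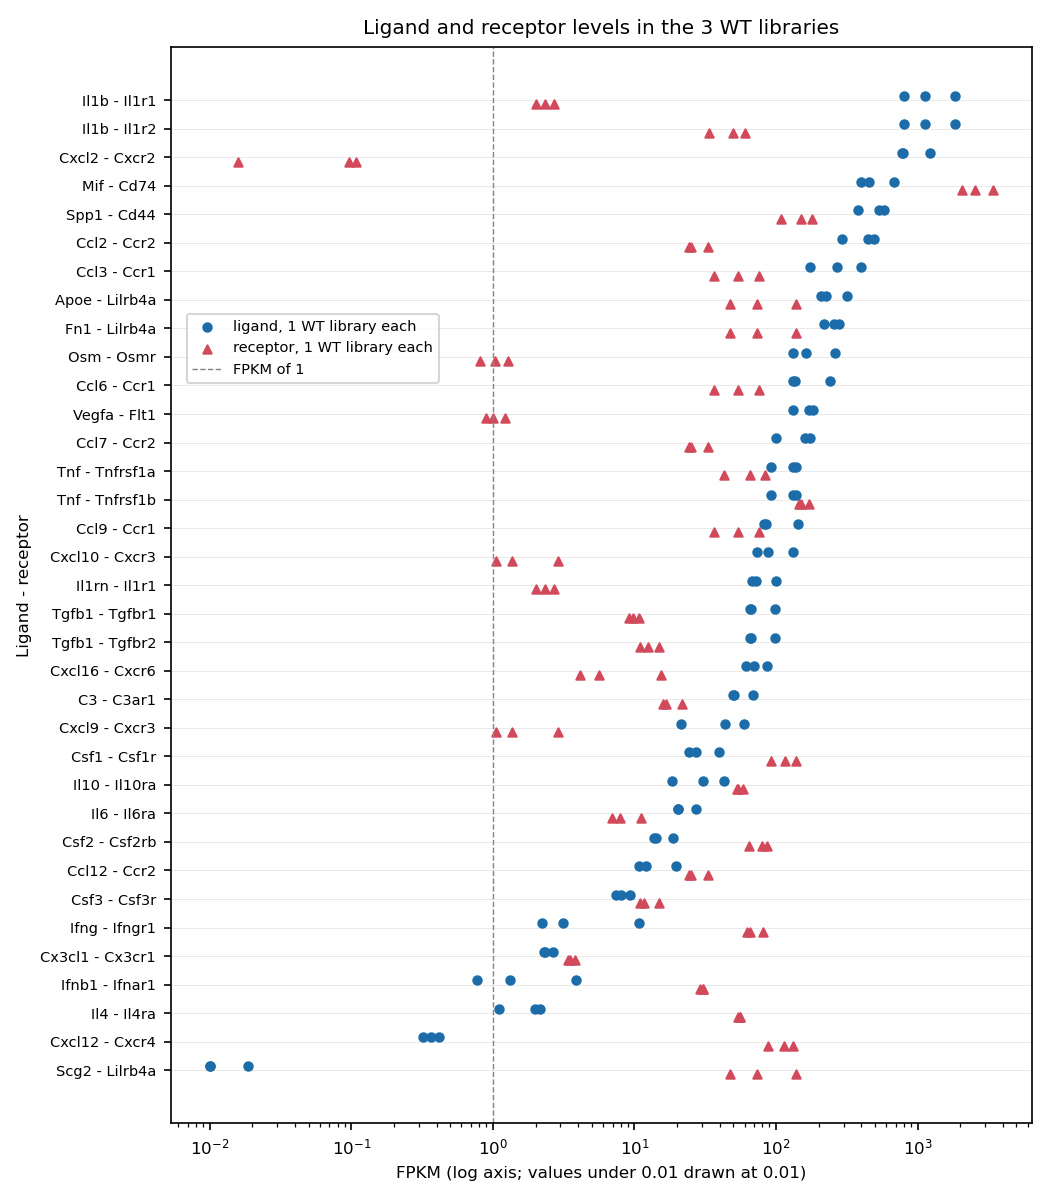
FPKM (log axis) of ligand (circles) and receptor (triangles) for each of the 35 pairs, 1 point per WT library, ordered by the ligand's mean; the dashed line is an FPKM of 1. Il1b, Cxcl2 and Ccl2 lie far to the right of their receptors, and Cxcl12, Il4 and Scg2 to the left.

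Genes of the suppressive programme were detected in 17 of 19 cases and made 0.412%, 0.430% and 0.460% of FPKM. Ptgs2, the cyclooxygenase COX-2 that starts prostaglandin E2 synthesis, was at 315, 394 and 421, and Arg1, arginase 1, at 369.5, 428 and 328, with means of 376 ± 54.8 and 375 ± 50.3; the 2 genes did not differ beyond their spread. Nos2, the inducible nitric oxide synthase that also consumes arginine, was at 7.90, 8.81 and 10.8, below Arg1 in every library, and Arg2, the mitochondrial arginase, at 20.6, 33.8 and 23.6. Vegfa was described above, and Hmox1, haem oxygenase 1, was at 123, 113 and 84.4. Tgfb1 was at 65.7, 97.8 and 66.2; the deposited count table gives a count that corresponds to 73.0 in replicate 2.

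Ligands, receptors and enzymes linked to the control of T cells covered a wide range. Cd274, which encodes PD-L1, was at 54.9, 86.2 and 83.3, above Pdcd1lg2 (PD-L2) at 8.76, 7.76 and 7.97 in each library. Lgals9 was at 40.9, 73 and 49.97, Havcr2 (TIM-3) at 35.4, 49 and 53.2, Vsir (VISTA) at 20.1, 26.6 and 22.2, and the ectonucleotidases Entpd1 (CD39) at 9.02, 21.1 and 17.5 and Nt5e (CD73) at 12.2, 11.1 and 10.6. Il10 was at 42.7, 30.3 and 18.4, highest in replicate 1. Ido1 at 0.613, 1.39 and 1.49, which breaks down tryptophan, and the amino acid oxidase Il4i1 at 0, 0 and 0.0238 were not detected. Il4i1 shared 74.5% of its windows with other genes, 73.7% with Tbc1d17, so its value is uncertain. All 6 subunit genes of the phagocyte NADPH oxidase were detected, among them Cyba (p22phox) at 254, 509 and 318, Ncf4 at 59.8, 70.8 and 48.3, Rac2 at 64.6, 59.1 and 43.3, Cybb (gp91phox) at 37.2, 50.6 and 51.7 and Ncf1 at 41, 40.7 and 34.3. Cyba exceeded its membrane partner Cybb in each library.

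Antigen presentation genes were high. MHC class II and costimulation genes, 12 of 13 detected, made 1.76% ± 0.325 of FPKM: after Cd74 came H2-Eb1 at 794, 1369 and 1059.6, H2-Ab1 at 763, 1346 and 1075 and H2-Aa at 518, 987 and 699.6. Cd86 was at 21, 44.8 and 32.1, Cd80 at 20.5, 42.7 and 31.5 and Cd40 at 11.2, 17.8 and 10.7, while Ciita, the master regulator of class II genes, was at 3.92, 2.25 and 3.92. Replicate 1 was lowest and replicate 2 highest for these class II chains and the 3 costimulators except Cd40, which was lowest in replicate 3. The 8 class I genes, all detected, made 1.65% ± 0.129, with H2-K1 at 1103, 1124 and 983 and the peptide transporter Tap1 at 37.5, 52.8 and 52.1.

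Lysosomal and matrix proteases were well represented. Of 18 cathepsins and inhibitors 16 were detected: Ctss, the cathepsin that trims the invariant chain, at 504, 1035 and 698, the inhibitor Cst3 at 332, 580.2 and 349.5, Ctsz at 314, 496 and 354 and the inhibitor Cstb at 284, 501 and 324. Ctsw, a cathepsin of cytotoxic lymphocytes, was at 57.1, 13.7 and 18.9. Of 17 metalloproteinases and inhibitors 15 were detected: Mmp2 at 251, 221 and 229.5, Timp2 at 172, 196 and 186, Adam8 at 91.7, 124 and 110.2, Timp1 at 83.4, 143 and 91.1 and Mmp14 at 61.2, 54.5 and 59.7. Mmp9, the other gelatinase, was at 4.16, 3.85 and 3.71, under Mmp2 in each library.

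Iron and lipid genes were led by a few members. Fth1 made 84.2% of the iron list, Ftl1, the ferritin light chain, was at 741, 1286 and 753, and the iron exporter Slc40a1 at 0.0414, 0.0231 and 0.0270 was the single member of 8 not detected. Psap, prosaposin, was at 667, 1133 and 908, Npc2, a lysosomal cholesterol carrier, at 90.4, 161 and 111, and Plin2, which coats lipid droplets, at 141, 124 and 96.2; 14 of 16 lipid and scavenger genes were detected.

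All 18 glycolysis genes were detected and had a mean of at least 10. Pkm, pyruvate kinase, was at 609, 781 and 727, Pgk1 at 426, 627 and 528, Eno1 at 416, 598 and 481, Ldha, lactate dehydrogenase, at 393, 597 and 481, and the glucose transporter Slc2a1 at 113, 149.9 and 136. Gapdh, an enzyme that every cell makes in quantity, was listed at only 9.99, 59.6 and 38.2, and it spread 5.96-fold between libraries. It shared 23.6% of its windows with 155 other genes, and how reads that match several places were treated is not given in the sources used here. Whether this bears on its level was not tested; Pgk1 shared 53.3% of its windows.

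Mitochondrially encoded messages, 12 of 13 detected, made 1.98% ± 0.350 of FPKM. The 6 with over 60% of their windows in other annotated genes were listed at 414, 503 and 266 for mt-Nd4 (61.8%), 103, 148 and 72.9 for mt-Co2 (99.5%), 94.5, 130.2 and 66 for mt-Atp6 (99.5%), 68.3, 135 and 67.8 for mt-Co3 (99.9%), 11.3, 32.4 and 16.8 for mt-Nd3 (97.9%) and 6.12, 6.72 and 6.54 for mt-Nd4l (98.7%). Of those sharing less, mt-Co1 shared 44.7%, while mt-Cytb at 1103, 1265 and 762 and mt-Nd1 at 825, 987 and 603 shared none, and mt-Nd6 at 204, 274 and 151 shared none either. mt-Atp8 at 0.686, 1.02 and 0.238, with none shared, was the member not detected.

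Genes of dividing cells were all detected, 21 of 21. Pcna, the sliding clamp of DNA replication, was at 136, 161 and 146, Hmgb2 at 87.8, 104 and 95.9, Stmn1 at 59.7, 83.9 and 70.1, Top2a at 31.4, 35.8 and 52.1 and Mki67 at 18.1, 11.7 and 24.2. All 17 interferon-stimulated genes were detected too, led by the antiviral membrane proteins Ifitm3 at 350.1, 899 and 479 and Ifitm2 at 201, 436 and 239, then Bst2 at 130.0, 194 and 144 and the GTPase Gbp2 at 60.8, 148 and 128. The classical type I targets were lower, with Isg15 at 54.1, 94.4 and 59, Mx1 at 7.90, 5.10 and 5.94 and Ifit1 at 3.56, 4.52 and 3.95.

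Other families gave further surface and secreted genes. Of 12 S100 and galectin genes 10 were detected, with S100a11 at 736, 1346 and 909, Lgals3 at 623, 878 and 643 and S100a6 at 506, 824 and 595 after Lgals1; the 2 not detected were S100a8 and S100a9. Of 20 integrin and adhesion genes 19 were detected, led by the tetraspanin Cd9 at 180.0, 279 and 198, the hyaluronan receptor Cd44 at 109, 179 and 149.8, and the integrin chains Itgb1 at 136, 145 and 155 and Itgb2 at 74.4, 132 and 116, of which the last pairs with Itgam. Of 11 Ms4a genes 8 were detected, led by Ms4a6d at 68.8, 146 and 89.6 and Ms4a4a at 59.8, 111 and 78.3. Of 15 complement genes 11 were detected; Cfp, properdin, was at 122, 179 and 129 and C3 at 49.99, 50.8 and 69.

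The 3 libraries ranked genes alike. Across the 12158 genes with a mean of at least 1, Spearman's rho between libraries was 0.937 for replicates 1 and 2, 0.959 for 1 and 3, and 0.966 for 2 and 3, given as descriptions since genes are not independent. The median coefficient of variation was 16.3%, 1476 genes (12.1%) spanned more than 2-fold and 466 (3.83%) more than 4-fold. Among the 4784 genes with a mean of at least 10, replicate 2 was highest in 59.7% and replicate 1 lowest in 50.4%, the order seen in Cd14, Ly6c2 and the class II genes. In TPM this tally changed: replicate 2 was highest in 30.4% of them and lowest in 46.9%, replicate 3 was highest in 43.96%, and replicate 1 was lowest in 38.3%. The named class II genes, Cd14 and Ly6c2 had the same highest and lowest library in TPM as in FPKM.

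Of the genes with a mean of at least 10, 53 spanned more than 4-fold, and in 47 of them replicate 1 was highest. Immunoglobulin and T cell receptor genes made 17 of the 53 and protein-coding genes 25. Among the widest 12 of all, which hold 10 immunoglobulin V and C genes, were Igkv10-96 at 63.6, 0.232 and 0, Iglv1 at 56.9, 1.59 and 4.47 and Igha at 61.3, 4.92 and 5.90. The widest protein-coding genes were Hspb1, Lyz2, Gzmf, Pdcd1 and Gapdh, with highest to lowest ratios of 9.54, 9.22, 6.65, 6.18 and 5.96. Lyz2 and Gapdh were lowest in replicate 1, and the other 3 highest there. At the other end the steadiest genes on the FPKM scale were Ppp1r21 at 11.8, 11.8 and 11.8, Rnf10 at 30.1, 30.2 and 30.1, the actin-severing protein Gsn at 190.2, 189 and 190.1, Spred1 at 12.8, 12.8 and 12.9 and the chaperone Calr at 349, 347 and 349.6.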

How the data were processed

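Poly-A RNA of M-MDSCs sorted from MC38 tumours was sequenced in 9 libraries, and the 3 labelled WT were used. The submitters' processing notes list HISAT2 2.0.5 and featureCounts 1.5.0-p3. Which build, gene annotation and strand option they were run with was not given in the sources used here. The authors deposited FPKM values for 54532 genes with lengths, classes and factor families, and counts for 9877 genes. Gene coordinates equalled those of GENCODE M21 (GRCm38) for 98.3% of the identifiers found there.

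Each FPKM times its gene length, divided by a constant of the library, came out whole in 100% of cases (tolerance 0.01), and these products are called recovered counts; the step was tested on simulated data. The per-million denominators were 1.09, 0.993 and 1.07 times the recovered totals, so FPKM is not scaled to those totals exactly. The count table held 29631 WT values, and 5 of them differed, all in replicate 2 (Tgfb1, Ccl9, Lyn, Il1r2 and Tgfbr1); the deposited FPKM was used. Means and SDs were computed in Python 3.11.15 with pandas 2.3.3 and NumPy 2.4.6, and figures drawn with matplotlib 3.10.9. No test was made, since only 1 group was described. Shared sequence was measured as identical 64-base windows of annotated transcripts, on either strand.

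The members, the 39 gene lists and the 35 pairs were chosen with earlier results of these data known, so no pattern here is independent support for those results. Genes were named by rule: the 20 highest, per list the 6 highest and those at 0 or under 1, the 20 highest factors, the 5 highest of the largest classes, the 12 widest and 5 steadiest with a mean of at least 10, the pairs, and the 4 identity markers; others named were picked after their values were seen. A few genes and pairs are not reported here, though the genes stay in counts and sums. No column was left unmapped. Alternatives tried were TPM scaling, other thresholds, shares of counts, the deposited count table, medians, another pseudocount, and leaving out each library.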

Additional observations from a re-analysis of the deposited data

How the results depend on the processing

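Alternative runs were scored only as moved or not, so a reversal could not be recorded. An order of libraries did change. Among genes with a mean of at least 10, replicate 2 was most often highest in FPKM (59.7%). In TPM it was most often lowest (46.9%). With an FPKM of at least 5 the detected genes fell from 11164 to 6692 and the detected factors from 649 to 331. As shares of counts instead of FPKM, protein-coding genes came to 97.9%, processed pseudogenes to 0.826%, miRNA to 0.0565%, lincRNA to 0.276% and snoRNA to 0.00639%, and 845 genes held 50% of counts; the construction of the share, which drops the division by length, moves these values. With no filter on low levels (mean FPKM above 0) the median coefficient of variation rose from 16.3% to 31.7% and the mean Spearman correlation of pairs of libraries fell from 0.954 to 0.924; with a mean of at least 10 that correlation was 0.917, and the cause was not tested. Leaving out each library in turn gave a median coefficient of variation from 10.6% to 16.1%, a median SD on the log2(FPKM + 1) scale from 0.128 to 0.195 (0.198 with all 3), and a mean correlation from 0.937 to 0.966; the first 2 were lowest without replicate 2, and the correlation was highest without replicate 1. Rescaling to TPM multiplied every level by 2.68 to 3.26 and raised the detected genes to 13329. List shares cannot change under it, since all values of a library are multiplied by the same constant. The 5 genes steadiest in FPKM had a coefficient of variation of 10.2% to 10.8% in TPM. The deposited count table moved 1 of 500 named genes by more than its SD. Depth limits low levels: 3 counts correspond to 0.124 to 0.156 CPM. No paired analysis was possible because no result comes from a test and only 1 group was described.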

Other observations

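Genes outside the lists gave a few further values. Ly6a and Ly6e, neighbours of Ly6c2 in the LY6 cluster, stood higher than it in each library, Ly6a at 163, 299.9 and 226 FPKM and Ly6e at 156, 303 and 199.9 in WT replicates 1, 2 and 3. The orphan receptors Nr4a2 at 62.7, 57.2 and 56.2 and Nr4a3 at 27, 25.8 and 28.5 stood below Nr4a1 in each library. Rn7sk, a small nuclear RNA without a poly-A tail, was at 38.3, 7.28 and 20.5, and CT010467.1, labelled rRNA and lying next to the lincRNA Gm26917, at 159, 127 and 182. The pseudogene I830127L07Rik, in the LY6 region near Ly6c2, was at 2.63, 26.8 and 9.25, with replicate 2 highest as for Ly6c2. Klrd1, which encodes the NK and T cell receptor chain CD94, at 18.8, 4.64 and 9.94, and Gimap6, a GTPase of lymphocytes, at 27.1, 5.82 and 9.63, were highest in replicate 1. These genes were chosen after their values were seen.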
